A study of Mus musculus with 13 samples.

Results

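The genes described here encode 9 surface proteins of the Ly6/uPAR family: Ly6a, Ly6c1, Ly6c2, Ly6d, Ly6e, Ly6k, Ly6g6c, Lypd3 and Plaur. They were taken by gene symbol, as a list drawn up with earlier results of these data known, and are 9 of the 15213 genes in the table. Their transcripts were measured by RNA sequencing in 10 mammary tumors from 6 females with the label genotype MtTA Teto-TSG101wt and in mammary glands of 3 wild-type FVB females. In the tumor-bearing mice, known as MMTV-tTA TetO-Tsg101 in the study's methods, the mouse mammary tumor virus promoter drives a tetracycline-controlled transactivator in a mosaic of the mammary epithelium, and the transactivator switches on HA-tagged mouse TSG101, an ESCRT-I subunit, in the absence of doxycycline. All mice were on the FVB background. Tumors 2 and 3, tumors 5 and 6, and tumors 8, 9 and 10 each came from the same animal, so the tumors were not all independent. The ages and the reproductive stage of the sequenced animals are not given in the labels.

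Proteins of this family carry the LU domain, a small fold in which finger-like loops are held together by disulfide bonds. Most members are tethered to the outer leaflet of the plasma membrane by a glycosylphosphatidylinositol (GPI) anchor in place of a transmembrane segment. Several mouse Ly6 proteins are classical antigens for sorting blood, endothelial and progenitor cells, whereas LYPD3, also called C4.4A, is known from stratified squamous epithelium, and PLAUR is the receptor of the urokinase-type plasminogen activator.

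Of the 9 members, 5 rose in the tumors (Ly6d, Ly6k, Ly6g6c, Lypd3 and Plaur), 2 fell (Ly6c1 and Ly6c2) and 2 did not pass the test (Ly6a and Ly6e). On the log2(normalized cpm + 1) scale, Lypd3 had a log2 fold change of 5.86 (SE 0.34), Ly6d of 4.59 (SE 0.67) and Ly6g6c of 4.53 (SE 0.46). The order depends on this scale, since Ly6g6c is near 0 in the glands: with edgeR on the recovered reads the values were 6.51 for Lypd3, 4.04 for Ly6d and 7.87 for Ly6g6c. A gene was counted as changed at a false discovery rate (FDR) under 0.05 over all genes tested and a change of more than 2-fold. By this rule 17.2% of the 11795 genes that passed the filter on low values were called, 10.2% higher and 6.99% lower in the tumors. To pass the filter, a gene had to exceed 5 normalized cpm in most libraries, which 7 of the 9 members did. With 10 tumors and 3 glands, a gene could pass through the tumors alone, as Ly6g6c, Lypd3 and Plaur did, but not through the glands alone, so the filtered shares favor genes that are high in tumors. The values of Ly6c2 and Ly6k come from the same test without the filter, where 20.6% of the 15213 genes were called, 10.5% higher and 10.1% lower. All 10 tumors lay above all 3 glands for 4 members (Ly6d, Ly6g6c, Lypd3 and Plaur) and below them for 2 (Ly6c1 and Ly6c2), where this held for 10.7% and 8.53% of the genes past the filter and for 11.4% and 10.3% of all listed genes. The median log2 fold change was 1.43 over the 9 members and 0.01 over all listed genes. In bulk tissue, fewer cells of a type and less RNA per cell cannot be told apart.

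**Figure D1:**
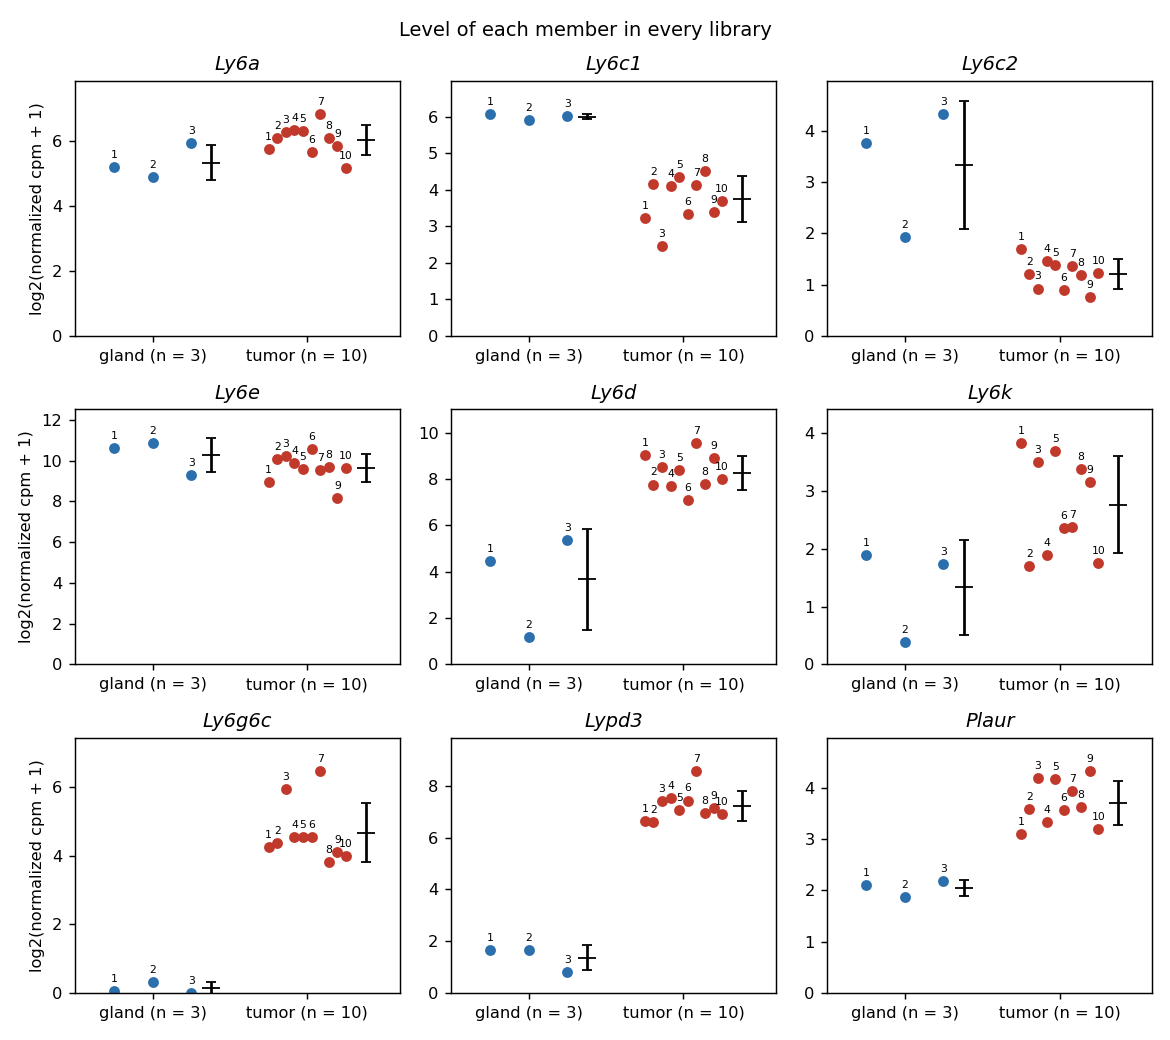
Level of each of the 9 members in the 3 glands (blue) and the 10 tumors (red), as log2(normalized cpm + 1), with the library number beside each point and the mean ± SD as a black bar. All tumors lie above all glands for Ly6d, Ly6g6c, Lypd3 and Plaur and below them for Ly6c1 and Ly6c2, whereas Ly6a, Ly6e and Ly6k overlap.

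Values are in normalized cpm, which is cpm (reads scaled to a common library size) divided by a normalization factor of the library. Tumor libraries held 6176269 to 16835397 reads and gland libraries 11672487 to 23889042. A level of 3 reads, taken as the most that an undetected gene could have at this depth, was 0.128 to 0.683 normalized cpm, counting error only. Tumor 9 and gland 3 had the smallest implied normalization factors (0.7105 and 0.7028, against 0.9048 to 1.2653 in the other libraries), and the ribosomal RNA precursor Rn45s took 27.4% of the reads in tumor 9 and 4.35% in gland 3, but also 9.32% in tumor 6 and 4.07% in tumor 10, whose factors were 0.9535 and 1.0924. With both libraries left out, Ly6a was called higher (log2 fold change 1.02, limma, FDR 0.0269), Ly6k lost its call (1.58, FDR 0.0591), and the calls of the other members did not change. Tsg101 itself was at 45.6, 53.0 and 61.0 in the glands and between 49.9 and 101 in the tumors, and its log2 fold change of 0.30 (SE 0.20) did not pass the test (limma, FDR 0.296), so that its transcript level alone does not check the labels. The whole tissues differed in composition as well: adipocyte markers summed to 37.5 to 313 in the tumors against 3087, 3289 and 9567 in the glands, and milk protein genes to 1384 to 76623 against 165034 to 305121.

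Ly6a, Ly6c1, Ly6c2, Ly6d, Ly6e and Ly6k lie within 350 kb of chromosome 15 (74762056 to 75112066, GRCm38.p6), a span with 13 protein-coding genes, of which 9 are listed. Plaur and Lypd3 are on chromosome 7, 161 kb apart, and Ly6g6c is on chromosome 17. Within the chromosome 15 cluster the direction differed from gene to gene. Ly6d and Ly6k at the left end rose, Ly6e and Ly6a did not pass the test, and Ly6c1 and Ly6c2 at the right end fell. Of the listed genes in this span that are no members, Ly6g6g, described because of its place after its values were seen, had a log2 fold change of 1.28 (limma, FDR 0.0373), Ly6m of 0.65 (FDR 0.201), and Ly6i of -1.26 (FDR 8.18e-05).

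**Figure D2:**
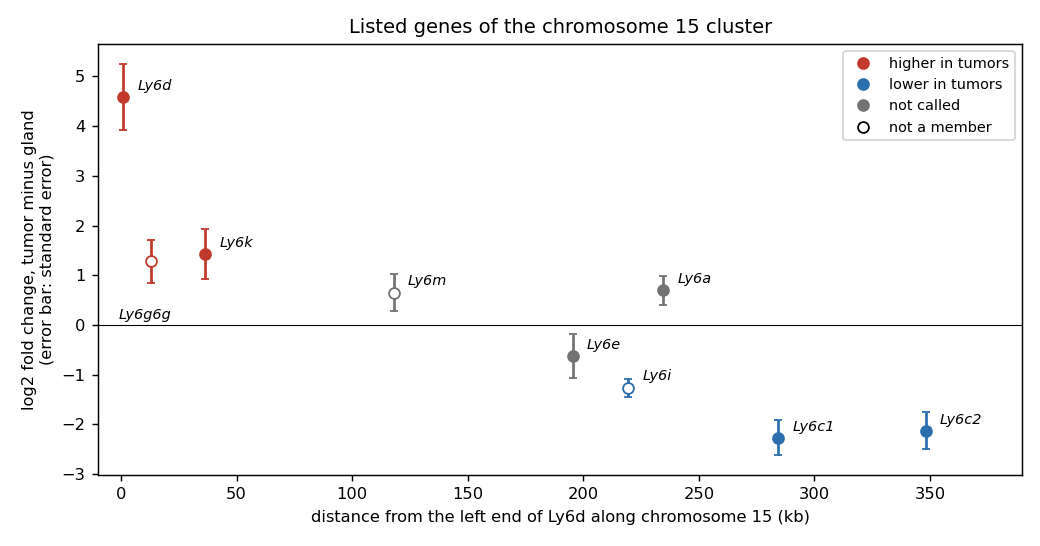
Log2 fold change (tumor minus gland, with its standard error) of the 9 listed genes of the cluster against their distance in kb from the left end of Ly6d; filled points are members, colors show the call. The highest value is 4.59 for Ly6d and the lowest -2.27 for Ly6c1, and the values do not fall steadily along the 350 kb.

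Ly6c1 and Ly6c2 encode the near-identical antigens that antibodies against Ly6C recognise together, on endothelial cells and on inflammatory monocytes and some lymphocytes. Their coding sequences, both of 396 bases, were identical at 387 positions (97.7%), with the longest identical run being 188 bases. The first 150 coding bases are shown because this stretch holds 6 of the differences, which are in capitals (minus strand, GRCm38, introns removed, spanning chr15:75047390-75048511 for Ly6c1 and chr15:75110548-75111667 for Ly6c2).
Ly6c1: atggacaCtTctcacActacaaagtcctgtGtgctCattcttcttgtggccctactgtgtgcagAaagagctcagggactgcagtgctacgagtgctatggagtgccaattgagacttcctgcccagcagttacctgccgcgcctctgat
Ly6c2: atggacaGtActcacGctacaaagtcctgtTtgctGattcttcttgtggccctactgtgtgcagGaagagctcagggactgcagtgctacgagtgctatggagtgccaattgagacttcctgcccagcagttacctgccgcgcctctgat

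Of all windows of 75 bases in the protein-coding transcripts, the read length of the study, 14.7% of those of Ly6c1 also occur in Ly6c2 and 20.7% of those of Ly6c2 in Ly6c1. A read that lies in such a window matches both genes, and how mates in other sequence were used to assign it is not given, so that the levels of both genes are uncertain by an amount that was not tested. The coding sequence of Ly6a was 82.0% identical to that of Ly6c1, and 5.9% of its windows occur in Ly6c1. The reference is of another strain than FVB, which was mapped on it.

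Ly6c1 (chromosome 15, 75044018 to 75048920) was at 66.1, 59.6 and 64.2 in the glands and between 4.50 (tumor 3) and 22.0 (tumor 8) in the tumors, with a median of 14.1. The glands were close to each other, and each tumor lay below all of them. The mean fell from 63.3 ± 3.36 (SD, n = 3) to 13.5 ± 5.56 (SD, n = 10), which was 4.71-fold, and the log2 fold change was -2.27 (SE 0.35, limma, FDR 2.00e-04). Endothelial markers fell as well: 9 of the 12 were called lower, none higher, and their sum was between 168 and 340 in the tumors against 887, 934 and 454 in the glands. Kdr, the main receptor of VEGF on endothelium, had a log2 fold change of -3.02 (SE 0.32). The log2 level of Ly6c1 minus the mean log2 level of the endothelial markers was -0.15 ± 0.52 (SD) in the tumors and 0.43 ± 0.62 in the glands. This difference of -0.58 did not pass a two-sided exact permutation test over the 13 libraries (p = 0.147, adjusted p = 0.147 over 7 such relations), and it was -0.22 without gland 3. The test takes tumors of the same mouse as independent; with means per mouse the difference was again -0.58 and passed (exact permutation, adjusted p = 0.0417).

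Ly6c2 (chromosome 15, 75108161 to 75112066) was at 12.5, 2.79 and 19.0 in the glands and between 0.683 (3 reads, tumor 9) and 2.22 (37 reads, tumor 1) in the tumors. Gland 2 was well under the other glands and still above each tumor. The log2 fold change without the filter was -2.13 (SE 0.37, limma, FDR 4.43e-04), with means of 1.35 ± 0.462 (SD, n = 10) and 11.4 ± 8.16 (SD, n = 3), and it was -2.83 without gland 2 and -1.63 without gland 3. Of the monocyte and macrophage markers, 4 of 12 rose, none fell and the sum was between 1154 and 4876 in the tumors and 891, 664 and 2032 in the glands. Ccr2, the chemokine receptor of inflammatory monocytes, was at 4.74 to 20.9 in the tumors and 13.1, 11.7 and 33.6 in the glands (log2 fold change -0.75, limma, FDR 0.189). Relative to the monocyte and macrophage markers, Ly6c2 was lower in the tumors by a difference of -2.95 on the log2 scale (two-sided exact permutation p = 0.00350, the smallest that 286 splits allow, adjusted p = 0.00612). Markers of T lymphocytes, some of which also carry Ly6C, summed to 380, 25.6 and 363 in the glands, in which gland 2 was again the lowest, and to 14.2 to 43.4 in the tumors. Their part in the result was not tested. The ratio of Ly6c1 to Ly6c2 was 5.31, 21.4 and 3.38 in the glands and 3.81 to 17.0 in the tumors, with no tumor outside the range of the glands.

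Ly6a encodes Sca-1, a marker of hematopoietic stem cells that is also found on endothelium, fibroblasts and part of the mammary epithelium. It was at 35.3, 28.3 and 59.2 in the glands and between 34.4 (tumor 10) and 111 (tumor 7) in the tumors, with a median of 67.1. Of the tumors, 6 of 10 were above all glands. The log2 fold change of 0.70 (SE 0.29) did not pass the test (limma, FDR 0.0888). Without tumor 9 and gland 3 it was 1.02 (FDR 0.0269), which is past the threshold, and scaled to epithelial genes it was -0.21 (FDR 0.631), so that no direction is given for it. Measured against the endothelial markers, which fell, Ly6a was higher in the tumors: the log2 difference was 2.14 ± 0.40 (SD) in the tumors and -0.25 ± 1.12 in the glands (difference 2.39, two-sided exact permutation p = 0.00350, adjusted p = 0.00612).

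Ly6e encodes a broadly expressed, interferon-inducible antigen that restricts the entry of several viruses, and it was the most abundant member in the glands. It was at 1573, 1885 and 633 in the glands and between 291 (tumor 9) and 1541 (tumor 6) in the tumors, with a median of 820. The groups overlapped, since gland 3 lay under the majority of the tumors. The log2 fold change was -0.62 (SE 0.44, limma, FDR 0.323). Tumor 9 and gland 3, the lowest library of each group, are those with the smallest normalization factors, and without both of them it was -0.94 (FDR 0.0463). Single glands moved it as well, to -1.10 without gland 3 (FDR 0.0789), -0.45 without gland 1 (FDR 0.656) and -0.32 without gland 2 (FDR 0.750), and it was called in none of these fits. The part of the library in this result was not tested further. Scaled to epithelial genes, which moved the median of all genes to -0.88, Ly6e was at -1.55 (limma, FDR 6.27e-04) and was called lower. Of 26 interferon-induced genes, 18 passed the filter, of which none rose and 7 fell; without the filter none of the 26 rose and 11 fell. Igtp, an interferon-inducible GTPase, had a log2 fold change of -2.25 (SE 0.31), Psmb8, an immunoproteasome subunit, of -1.91 (SE 0.18), and Bst2, the tethering factor tetherin, of -1.81 (SE 0.21). The median of this list was -0.82 against 0.01 for all listed genes, whereas Isg15, the ubiquitin-like modifier, was at 6.15 to 16.6 in the tumors and 6.64, 9.14 and 11.7 in the glands.

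Ly6d encodes an antigen that is known in humans as E48 from keratinocytes and in mice as a marker of early B lymphocyte progenitors. It was at 21.3, 1.29 and 39.7 in the glands and between 137 (tumor 6) and 755 (tumor 7) in the tumors, with a median of 293. Even the lowest tumor exceeded the highest gland, although the glands differed 30.8-fold among themselves. The means were 347 ± 188 (SD, n = 10) and 20.8 ± 19.2 (SD, n = 3), which is 16.7-fold, and the log2 fold change was 4.59 (SE 0.67, limma, FDR 1.33e-04). The size of the change depended on the glands: it was 3.36 without gland 2 (FDR 3.57e-04) and 5.43 without gland 3 (FDR 6.53e-05), with the value without gland 1 (FDR 5.90e-04) between them. B lymphocyte markers had the same order in the glands, with sums of 208, 3.46 and 233, and were at 0.850 to 102 in the tumors. Their part in the gland values was not tested, while in 9 of the 10 tumors their sum was below 10.

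Basal keratinocyte markers moved in the direction of Ly6d. Of the 9 markers 8 rose, and their sum was between 1345 and 5349 in the tumors against 463, 698 and 275 in the glands. Squamous markers, genes of the cornifying layers, summed to 783 to 5117 in the tumors against 73.0, 71.4 and 86.6, with 13 of the 15 listed genes called higher and none lower without the filter. Krt6a, a keratin of activated and suprabasal keratinocytes, had a mean of 317 ± 320 (SD, n = 10) across tumors against 0.0944 ± 0.0829 (SD, n = 3) across glands. Relative to the basal keratinocyte markers, Ly6d was higher in the tumors by 1.67 on the log2 scale, which did not pass the two-sided exact permutation test (p = 0.0909, adjusted p = 0.106). This difference was 1.97 without gland 1, 0.30 without gland 2 and 2.74 without gland 3, and passed in none of these (exact permutation, adjusted p = 0.159, 0.697 and 0.0530). The part of these cells in the levels of Ly6d, Lypd3 and Ly6g6c was not tested.

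Ly6k, whose human counterpart is known as a cancer-testis antigen, was the least clear of the called members. It was at 2.70, 0.310 and 2.32 in the glands (63, 6 and 19 reads) and between 2.24 (tumor 2) and 13.3 (tumor 1) in the tumors. The tumors spread widely, with tumors 2 and 10 within the range of the glands and 8 of 10 above it. The log2 fold change without the filter was 1.43 (SE 0.50, limma, FDR 0.0396). The call was lost without gland 1 (FDR 0.0548), gland 2 (log2 fold change 0.96, FDR 0.247) or any of tumors 1, 3, 5, 8 and 9 (FDR 0.0525 to 0.0596). Of its windows of 75 bases 24.5% also occur in Gm17189, an antisense gene that is not listed, and whether the authors counted by strand is not given, so that reads of either gene cannot be told apart there.

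Ly6g6c, a Ly6 gene of the major histocompatibility complex class III region, was almost undetected in the glands, where it had 1, 5 and 0 reads (0.0428, 0.258 and 0 normalized cpm). In the tumors it was between 13.2 (tumor 8, 112 reads) and 87.0 (tumor 7, 830 reads), with a median of 21.0. Tumor 3 with 61.0 was the only other tumor above 22.5. The log2 fold change on the log2(normalized cpm + 1) scale was 4.53 (SE 0.46, limma, FDR 5.81e-06) and depends on the pseudocount, because the gland level is near 0: it was between 2.55 and 8.04 over the alternatives that left out no single library or mouse, and was called in each.

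Lypd3 was at 2.18, 2.12 and 0.731 in the glands (51, 41 and 6 reads) and between 95.5 (tumor 2) and 378 (tumor 7) in the tumors, with a median of 136. Each tumor was far above the highest gland. The means were 161 ± 81.8 (SD, n = 10) and 1.68 ± 0.820 (SD, n = 3), which is 96.2-fold as a ratio of means. The log2 fold change, a difference of mean logs, was 5.86 (SE 0.34, limma, FDR 2.49e-08). Of its windows 5.1% occur in the antisense gene Gm26550, which is not listed.

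Lypd3 followed the basal keratinocyte markers within the tumors closely. Its log2 level minus their mean was between -0.48 and 0.09 over the 10 tumors (SD 0.20), while Lypd3 itself varied 3.95-fold. In the glands the same difference was -3.07, -3.15 and -3.27. Lypd3 thus rose by 2.93 on the log2 scale beyond these markers (two-sided exact permutation p = 0.00350, adjusted p = 0.00612). For Ly6g6c this difference was 1.61 (p = 0.00350, adjusted p = 0.00612, exact permutation test), but it was 0.08 with a pseudocount of 5 (adjusted p = 0.822).

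**Figure D3:**
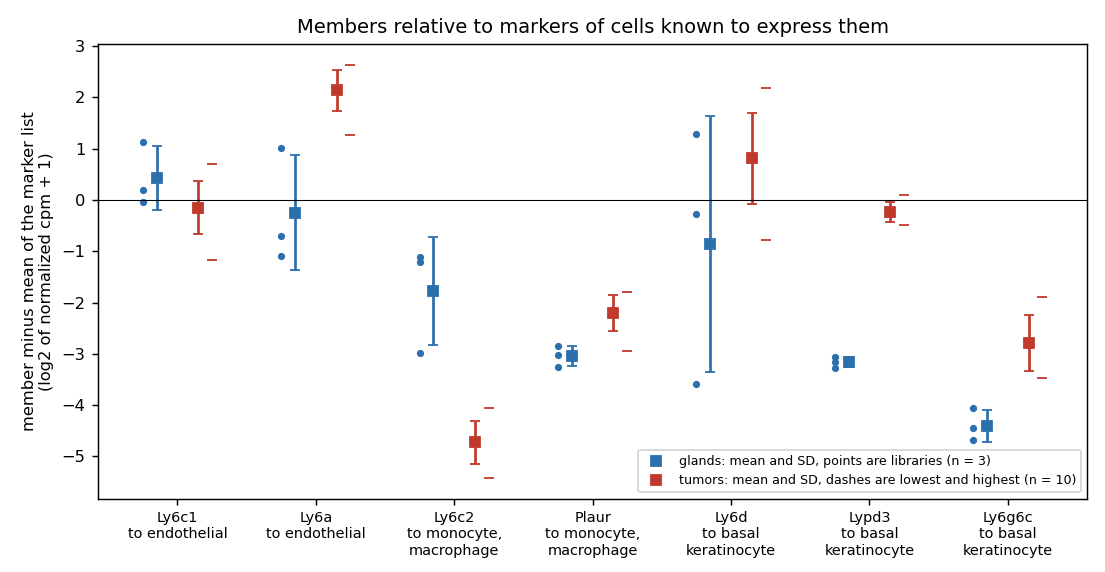
Log2 level of a member minus the mean log2 level of a marker list, for 7 relations, with glands in blue (points, mean ± SD) and tumors in red (mean ± SD, dashes for lowest and highest). Lypd3 lies near 0 in all tumors and near -3.16 in the glands. Ly6c2 is lower and Ly6a higher in the tumors, and Ly6c1, Ly6d and Plaur overlap.

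Plaur, which gathers urokinase at the cell surface, was at 3.30, 2.68 and 3.54 in the glands and between 7.56 (tumor 1) and 19.1 (tumor 9) in the tumors, with a median of 11.3. The groups did not overlap, and the spread within each was small. The means were 12.6 ± 4.11 (SD, n = 10) and 3.17 ± 0.439 (SD, n = 3), which is 3.98-fold as a ratio of means. The log2 fold change was 1.65 (SE 0.26, limma, FDR 2.47e-04). Scaled to epithelial genes, which moved the median of all genes to -0.88, it was 0.87 (FDR 0.0458) and so under the 2-fold threshold on this log2 scale. Relative to the monocyte and macrophage markers, the cells from which Plaur is best known, it was higher by 0.83 (two-sided exact permutation p = 0.00699, adjusted p = 0.00979), which was 0.35 with a pseudocount of 5 (adjusted p = 0.0979). Neutrophil markers, another cell type known to express Plaur, summed to 306 to 3952 in the tumors against 11.0, 3.98 and 51.1 in the glands, and without the filter 4 of the 7 listed rose and none fell. Most of this sum came from S100a8 and S100a9, with tumor means of 869 and 427, which are also made by keratinocytes. Camp, a granule peptide of neutrophils, had a log2 fold change of 3.35 (SE 0.71, limma, FDR 0.00264), with 10 of 10 tumors above all glands, and Mmp8, a granule collagenase, was at 0.118 to 8.42 in the tumors (log2 fold change without the filter 1.18, FDR 0.103). Cd177, a neutrophil antigen outside this list, had a log2 fold change without the filter of -0.94 (limma, FDR 0.0279). The part of neutrophils was not tested.

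Across the uPA system, 21 of the 23 genes of the list were listed and 18 passed the filter, of which 5 rose and 1 fell, against 6 and 2 of the 21 without the filter. The ligand of PLAUR, Plau, was at 32.6 to 89.8 in the tumors and 33.9, 44.7 and 59.0 in the glands (log2 fold change 0.38, SE 0.32, limma, FDR 0.423). The related activator Plat was at 12.1 to 33.9 in the tumors and 9.21, 12.5 and 19.6 in the glands (FDR 0.150). Serpine2, which encodes an inhibitor of urokinase and thrombin, rose from 7.07 ± 3.49 (SD, n = 3) to 49.1 ± 20.4 (SD, n = 10) with a log2 fold change of 2.64 (SE 0.37, limma, FDR 9.82e-05). Serpinb2, another inhibitor of urokinase, had no reads in the glands and was at 1.32 to 26.3 in the tumors. Itgam, an integrin chain that binds PLAUR on myeloid cells, had a log2 fold change of 2.28 (SE 0.28), and Itgb3, the partner of integrin alpha-v in the vitronectin receptor, had a log2 fold change of -1.12 (SE 0.33), whose call was lost without gland 1 or gland 2. Vtn, the vitronectin that PLAUR binds, was at 17.2, 5.83 and 7.92 in the glands and 0.420 to 1.69 in the tumors (log2 fold change without the filter -2.46, SE 0.27).

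Of the genes that build or remodel the GPI anchor, 29 of 32 were tested. Pgap1, a deacylase of the anchor's inositol, had a log2 fold change of 1.00 (SE 0.22) just past the threshold, and no other gene of this list was called. Its call was lost without gland 2, tumor 7 or tumor 9, and without gland 3 the list had 3 genes higher and 2 lower. The median of the list was 0.05. Piga, the catalytic subunit of the first step, was at 10.4 to 17.5 in the tumors and 7.84, 6.66 and 13.4 in the glands (FDR 0.0715).

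Promoters from RefSeq (GRCm38.p6, 250 bases before to 50 after the annotated start, 5′ to 3′) are shown for the members that rose and have an entry, since Lypd3 and Ly6g6c had the largest correlation among the members and Plaur is the neighbor of Lypd3 (Lypd3 chr7:24636320-24636619 and Plaur chr7:24462233-24462532, plus strand; Ly6g6c chr17:35067075-35067374, plus strand). Capitals mark a match to TGANTCA, the AP-1 motif, or to TATAAA, the TATA box.
Lypd3: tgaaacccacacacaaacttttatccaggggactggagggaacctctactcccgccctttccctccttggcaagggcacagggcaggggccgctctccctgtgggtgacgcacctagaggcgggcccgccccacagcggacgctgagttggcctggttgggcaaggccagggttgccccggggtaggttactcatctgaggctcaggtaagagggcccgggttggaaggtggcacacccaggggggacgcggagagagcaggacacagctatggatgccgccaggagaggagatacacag
Ly6g6c: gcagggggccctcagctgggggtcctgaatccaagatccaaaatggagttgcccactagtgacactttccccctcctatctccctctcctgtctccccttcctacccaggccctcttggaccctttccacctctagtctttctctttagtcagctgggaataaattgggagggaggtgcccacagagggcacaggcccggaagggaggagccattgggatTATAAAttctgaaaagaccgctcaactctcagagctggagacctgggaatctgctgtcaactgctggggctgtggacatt
Plaur: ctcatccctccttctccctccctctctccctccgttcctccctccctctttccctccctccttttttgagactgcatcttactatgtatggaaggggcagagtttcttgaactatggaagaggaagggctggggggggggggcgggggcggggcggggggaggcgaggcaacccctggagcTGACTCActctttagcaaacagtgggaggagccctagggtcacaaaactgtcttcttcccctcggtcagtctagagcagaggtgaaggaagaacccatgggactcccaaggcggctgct

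Entries exist for 5 of the 9 members, and none was found for Ly6a, Ly6d, Ly6e and Ly6k. Beside these motifs, CACCC, bound by Krüppel-like factors, and TTCNNNGAA, the GAS element of STAT factors, were searched, each on both strands. Plaur holds TGACTCA at bases 182 to 188 of its entry, a motif in 7.81% of 32851 promoters. Ly6g6c holds TATAAA at bases 221 to 226, found in 13.6% of promoters. Lypd3 has CACCC at bases 235 to 239 and, on the other strand, at bases 103 to 107, which is not in capitals and occurs in 57.5% of promoters. The GAS element, in 8.30% of promoters, is not in these windows. A match is a description of the letters and no evidence of binding.

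Per kb of exon, the order of the members changed between the tissues. The length used was that of all annotated exons of a gene joined, 744 bases for Ly6d and 3784 for Ly6e. Without this division the tumor median was higher for Ly6e (820 normalized cpm) than for Ly6d (293), so the lead of Ly6d given below depends on it. In the glands Ly6e led with a median of 416 normalized cpm per kb, in each of 3 glands above Ly6c1 with 38.3, which was followed by Ly6a with 29.3 and Ly6d with 28.6. Ly6c1, Ly6a and Ly6d changed places between the glands. In the tumors Ly6d led with a median of 394 and was above Ly6e, with 217, in 9 of 10, the exception being tumor 6. Lypd3 with 82.3, Ly6a with 55.7 and Ly6g6c with 15.4 followed, and Lypd3 was above Ly6a in each tumor. Ly6c1 with 8.39, Ly6k with 7.33 and Plaur with 4.30 were not separated, since each was above the next in 6 of 10 tumors, and Ly6c2 was the lowest with 0.481.

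Ly6d made up 24.0% to 72.4% of the summed level per kb of the 9 members in the tumors and 5.47%, 0.308% and 16.7% in the glands. The share of Ly6e was 8.76% to 53.0% in the tumors and 79.4%, 88.5% and 52.3% in the glands. Because both are taken from the same library, this share does not depend on the scaling between libraries. It does depend on the exon lengths used. The ratio of Ly6d to Ly6e in normalized cpm was 0.0890 to 1.63 in the tumors and 0.0135, 6.85e-04 and 0.0628 in the glands, with no overlap. The ratio of Lypd3 to Plaur, the neighbors on chromosome 7, was 7.29 to 26.5 in the tumors and 0.662, 0.788 and 0.207 in the glands.

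**Figure D4:**
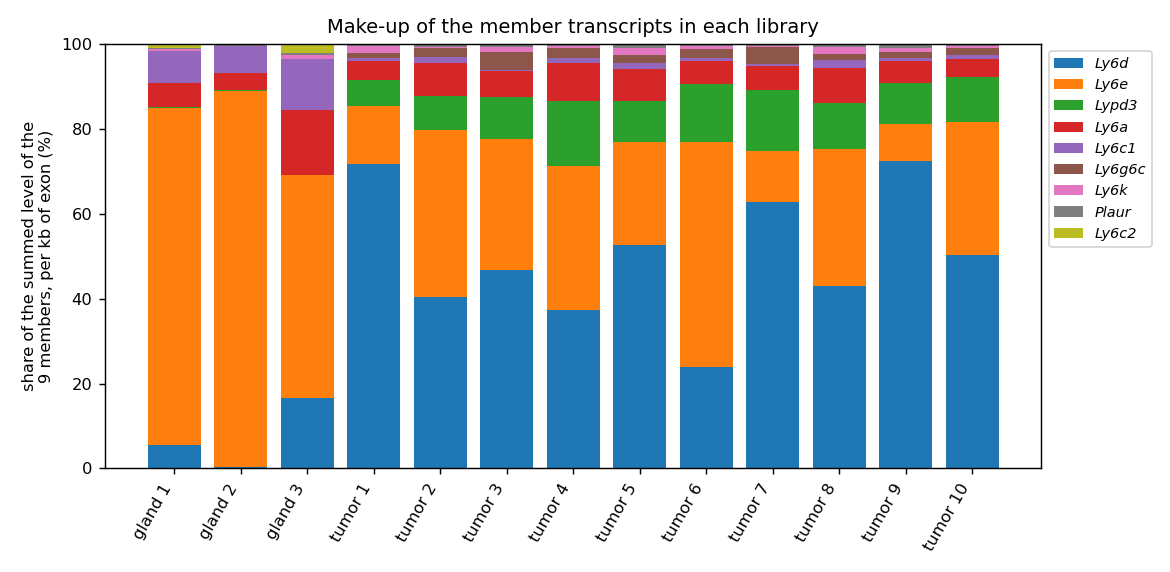
Share of each member (%) in the summed level of the 9 members per kb of exon, for the 3 glands and 10 tumors. Ly6e (orange) fills over 52% of each gland, whereas Ly6d (blue) is the largest share in all tumors but tumor 6.

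The members varied among the tumors in different ways. Tumor 7 was the highest tumor in Ly6a, Ly6d, Ly6g6c and Lypd3, 4 of the 9 members, and 12.0% of all genes tested were highest in this tumor. It also had the largest sums of basal keratinocyte (5349), squamous (5117) and neutrophil (3952) markers, the last being mostly S100a8 and S100a9. Over the 10 tumors the log2 levels of Ly6g6c and Lypd3 had a Pearson r of 0.80, Ly6a and Ly6g6c of 0.69, and Ly6e and Ly6d of -0.65. These are descriptions over tumors that in part share a mouse. Ly6a, Ly6g6c and Lypd3 were all highest in tumor 7, and r without this tumor was not tested. Tumors of 1 mouse were not closer than tumors of different mice for most members: the median absolute log2 difference of Ly6d was 0.88 over the 5 pairs from the same mouse and 0.68 over the 40 other pairs, and for Lypd3 it was 0.22 and 0.49.

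For each member the genes with the most similar pattern over the 10 tumors were listed, by Pearson r of the log2 levels, as a description (r over the 6 mouse means in parentheses). Lypd3 was most like Dsp, which encodes desmoplakin of the desmosomes, with r = 0.98 (0.99), followed by Ttpal and Ybx3. Dsp was at 167 to 998 in the tumors and 14.8, 24.6 and 6.46 in the glands. Ly6g6c was most like Cyp4f39, Cdkn1a (the cell cycle inhibitor p21) and Krt6a, with r between 0.97 and 0.98. Ly6d was most like Psapl1, its family member Lypd6b and Hopx, each with r = 0.97, and Psapl1 was at 31.1 to 226 in the tumors and at 0.214, 0.103 and 0.122 in the glands. Ly6c1 was most like Cd34, a sialomucin of endothelial and progenitor cells, with r = 0.88 (0.64), then Cygb and Stat2. Ly6a was most like Thbs2, which encodes a matricellular protein, with r = 0.94 (0.97), then Dram1 and Prss22.

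Ly6e was most like Klhdc3, Crip2 and Ubald1, each with r = 0.99, and these genes were lowest in the same kind of libraries, Klhdc3 being at 99.2, 110 and 47.2 in the glands. For the low-count members the values were weaker, with r of 0.86 for Ly6c2 (Polr3f, Eri2 and Tmem87a next) and 0.82 for Ly6k (Sla, Arl11 and Lrmp). Plaur was most like Csf2rb2, a cytokine receptor chain, with r = 0.90, Fnip2 and the nuclear RNA Malat1.

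The family beyond the 9 members was read from a list of 47 genes, of which 17 are listed and 7 passed the filter. Among these 7, Ly6g6e, Lypd6b and Pinlyp rose and Gpihbp1 fell. Without the filter 7 of 17 rose, with Ly6h, Lypd5, Slurp1 and Psca in addition, and 3 fell, with Ly6i and Lypd6 in addition, against 10.5% and 10.1% of all listed genes. Lypd6b, a neighbor of Lypd6 on chromosome 2, rose from 2.06, 0.723 and 3.66 in the glands to a median of 11.0 in the tumors, each of which was above all glands (log2 fold change 2.00, SE 0.39, limma, FDR 0.00143), whereas Lypd6 was at 1.71, 3.92 and 4.02 in the glands and at most 0.910 in the tumors (-1.67, SE 0.24, FDR 9.75e-05). Both encode proteins that modulate nicotinic acetylcholine receptors.

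Gpihbp1, the capillary protein that carries lipoprotein lipase, was at 66.1, 81.7 and 204 in the glands and between 6.29 and 41.7 in the tumors (log2 fold change -2.59, SE 0.54, limma, FDR 0.00240). The part of endothelial cells and adipocytes, whose markers fell, was not tested. Slurp1, a secreted protein of the epidermis, Psca, the prostate stem cell antigen, and Lypd5 had no reads in any gland. Against the floor of 3 reads per library the mean of the tumors was at least 8.39-fold higher for Slurp1, at least 19.2-fold for Psca and at least 18.4-fold for Lypd5. Without tumor 7 these bounds were 5.71-fold, 17.7-fold and 9.30-fold. In tumor 8 Lypd5 and Slurp1 were at the floor (0.353, 3 reads each). Lypd5 was at 0.420 in tumor 1 (7 reads), where the floor was 0.180. Pinlyp, listed at 0, 0.361 and 0 in the glands, was between 4.46 and 68.9 in the tumors (3.32, SE 0.57, FDR 4.83e-04).

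Ly6g6e on chromosome 17, close to Ly6g6c, was at 5.05, 6.30 and 9.51 in the glands and 11.2 to 37.1 in the tumors (log2 fold change 1.55, SE 0.35, limma, FDR 0.00356). Its neighbors Ly6g6d (0.44, FDR 0.353) and Ly6g5b (0.46, FDR 0.0821) were not called; Ly6g6d and Ly6g6e overlap in the annotation, and their reads may not be separable. Ly6h, known from brain, was at 2.48 to 12.7 in the tumors and 1.11, 0.671 and 1.71 in the glands (1.48, SE 0.36, FDR 0.00557). Ly6i was at up to 0.455 in the tumors, with at most 4 reads in any of them, and at 1.39 to 2.61 in the glands. The complement inhibitors Cd59a (-0.75, FDR 0.0144) and Cd59b (-0.97, FDR 0.0161) passed the FDR. So did Cd177, a neutrophil antigen (-0.94, FDR 0.0279). None of them reached the 2-fold threshold on the log2(normalized cpm + 1) scale. The ratio of the gland mean to the tumor mean was 1.74 for Cd59a, 2.97 for Cd59b and 2.18 for Cd177. Lynx1 had a log2 fold change of -0.59 (FDR 0.364).

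**Figure D5:**
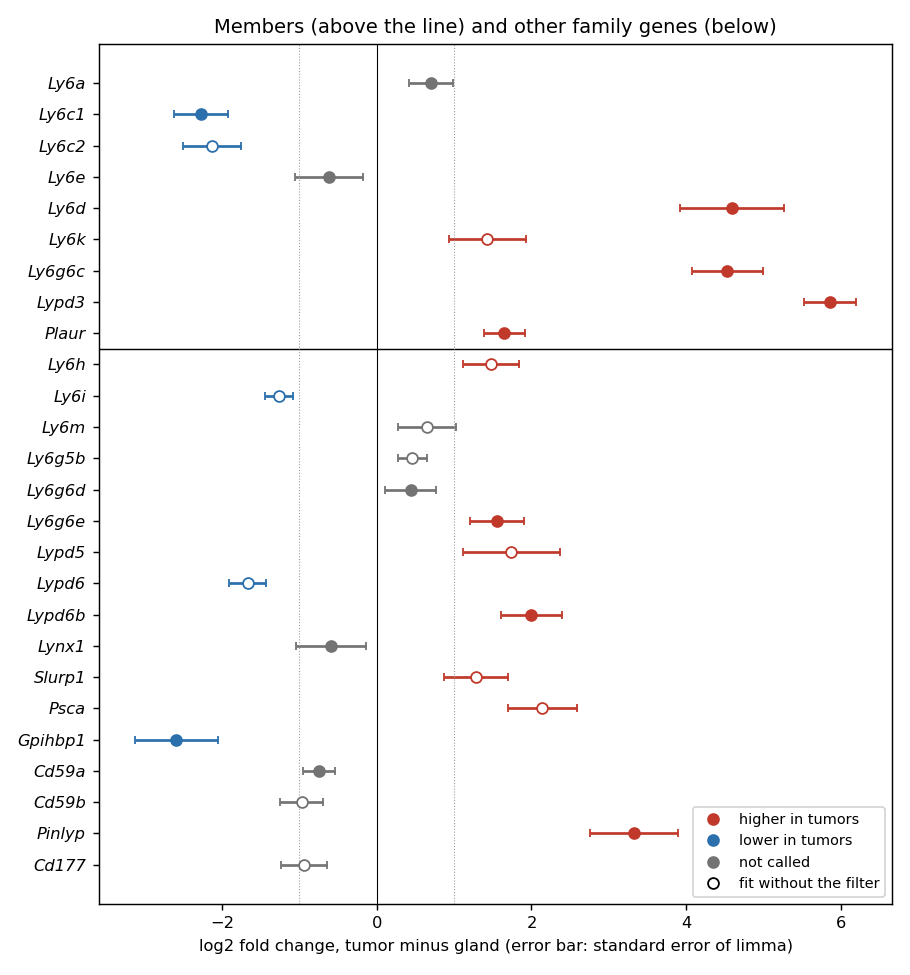
Log2 fold change (tumor minus gland) with the standard error of limma for the 9 members above the line and the 17 other listed family genes below it; open points come from the fit without the filter, dotted lines mark 2-fold. On this log2(normalized cpm + 1) scale Lypd3 at 5.86 is the highest and Gpihbp1 at -2.59 the lowest.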

How the data were processed

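Total RNA of flash-frozen tumors and glands was sequenced with paired-end reads of 75 bases. The authors mapped reads to mm10 with Rsubread and counted them per gene with featureCounts (strand setting not stated), and the deposited signal values are counts divided by an effective library size from edgeR, here called normalized cpm. Reads were recovered from them, since 100% of the values equalled a whole number of reads within 0.02. The labels name 2 sequencing sites without assigning libraries, so site and group cannot be told apart.

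The 10 tumors and 3 glands were compared on log2(normalized cpm + 1) with limma 3.58.1 (R 4.3.3, variance trend, no covariate, two-sided, Benjamini-Hochberg adjustment over all genes tested). Fold changes on this scale understate those of low genes. Folds given beside 2 means are ratios of these means and can differ from the log2 fold change, which compares means of logs. A gene was called at an FDR under 0.05 and more than 2-fold, and 3418 genes that did not exceed 5 normalized cpm in most libraries were left out. The p-values take the 10 tumors as separate samples. edgeR 4.0.16 and DESeq2 1.42.0 on recovered reads, other scalings, pseudocounts and filters, means per mouse and each library left out were alternatives. With reads recovered, edgeR's count test called 1122 genes higher and 952 lower. The test was checked on simulated data. Levels relative to marker lists were compared with two-sided exact permutation tests over the libraries, adjusted over 7 relations.

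The members and lists were chosen with earlier results of these data known. Named were the members, each listed gene of the rest of the family, up to 3 called genes with the largest rise and 3 with the largest fall in the uPA system, GPI anchor and interferon lists, and the 3 genes most like each member over the tumors; other genes with values (Kdr, Ccr2, Krt6a, S100a8, S100a9, Camp, Mmp8, Plau, Plat, Serpinb2, Vtn, Isg15, Piga, Ly6g6g, Tsg101) were picked from these lists or for their place, after their values were seen. A called gene of the uPA system is not reported here. Exon lengths and shared windows come from GENCODE (GRCm38), positions and promoters from RefSeq (GRCm38.p6). The 3-read floor and its 95% limit cover counting error only.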

Additional observations from a re-analysis of the deposited data

Results flagged for a closer look

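The 9 members, the 17 other family genes and the 7 relations to marker lists gave 33 groups of 10 tumor values. In 6 groups a single tumor stood apart from the rest. Its gap to the next tumor, as a share of the whole range, was over Dixon's 95% critical value. Chance marks about 1 in 20 groups if these are independent and normally distributed. The genes were taken in normalized cpm, not as logs, and all groups share the same tumors. The number of flags is therefore not compared with chance. In 5 of the 6 groups the tumor that stood apart was tumor 7, which had the largest sums of basal keratinocyte and squamous markers. Lypd3 was at 378 normalized cpm in tumor 7 against 186 in the next tumor, Pinlyp at 68.9 against 16.2, and Lypd5 at 21.6 against 3.71. Slurp1 was at 7.03 in tumor 7 against 2.50 in the next tumor and Ly6m at 5.45 against 2.96. Cd177 was at 5.66 in tumor 6 against 2.95. The cause was not tested, and the call of Lypd3 held without tumor 7.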

How the results depend on the processing

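Of 373 alternative values with a test, 351 kept their direction and their side of the threshold, among them 242 of the 261 fold changes of members. Of 348 alternative counts of called genes, 299 were within 1.5 times the reported count, which does not say that the called genes were the same. Ly6c1, Ly6d, Ly6g6c and Lypd3 were called under each alternative. Depth limits Ly6k, Ly6c2 and the glands' Ly6g6c, which rest on few reads.

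Scaling to 13 epithelial genes, of which 5 were called higher and none lower in the tumors (list median 0.65), shifted the median of all genes to -0.88: it gave 3 members, 504 genes, 3 uPA system and 0 GPI anchor genes higher, and 4747 genes, 3 family, 2 uPA system, 10 GPI anchor and 16 interferon-induced genes lower. Ly6a reversed to -0.21 (limma, FDR 0.631), Ly6e was -1.55 (FDR 6.27e-04), Ly6k 0.74 (FDR 0.284) and Plaur 0.87 (FDR 0.0458). Library size alone shifted it to 0.33, with 1864 genes higher and 495 lower (79.0% of calls higher, against 59.3% in the reported test), Ly6a at 1.02 (FDR 0.0298), 4 GPI anchor genes higher and 0 uPA system genes lower.

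Without the filter, or with a mild filter of 1 normalized cpm in 3 libraries, 1538 genes were lower, 7 family genes higher and 3 lower, 2 uPA system and 11 interferon-induced genes lower. A pseudocount of 5 gave 0.74 for Ly6k (FDR 0.0675), 0.35 for Plaur to monocytes and macrophages and 0.08 for Ly6g6c to basal keratinocytes (adjusted p = 0.0979 and 0.822, exact permutation test), 0 uPA system genes lower and 0 GPI anchor genes higher. A pseudocount of 0.25 and DESeq2 each gave 2 GPI anchor genes higher. With means per mouse, Ly6c1 relative to endothelium was -0.58 and passed the threshold (exact permutation, adjusted p = 0.0417).

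Tumors 1 to 3 and glands 1 to 3 share replicate numbers but no mouse, and their deviations correlated at -0.58, 0.04 and -0.66, so the numbers do not pair them. A fit of these 6 libraries with the replicate block called 350 genes higher and 179 lower, 1 member lower, 2 uPA system genes higher and 0 lower, 0 GPI anchor genes higher, 0 family genes and 2 interferon-induced genes lower, with Ly6c2 at -2.06 (FDR 0.103) and Plaur at 1.57 (FDR 0.0989). Tumors of the same mouse had a consensus correlation of 0.05.

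Leaving out single libraries or mice gave 0.96 to 1.71 for Ly6k, 0 to 2 uPA system genes lower, 0 to 3 GPI anchor genes higher and 0 to 2 lower. Itgb3 was not called without gland 1 or gland 2, nor Pgap1 without gland 2, tumor 7 or tumor 9, and the highest GPI anchor counts came without gland 3. Leaving out tumor 9 and gland 3 together, chosen after seeing the data, gave Ly6a 1.02 (FDR 0.0269), Ly6k 1.58 (FDR 0.0591), 2 uPA system genes lower, and 3 GPI anchor genes higher and 2 lower.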
